A study of Mus musculus with 8 samples.

Results

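The genes described here mark the endocrine cells of the islet other than beta cells. They are the glucagon gene Gcg of alpha cells, the somatostatin gene Sst of delta cells and the pancreatic polypeptide gene Ppy of PP cells. With them are the peptide YY gene Pyy and the transthyretin gene Ttr. The homeobox genes are Irx1 and Irx2 of alpha cells and Hhex of delta cells. All 8 were chosen by symbol, as every probe set whose platform annotation gives exactly 1 of these 8 symbols. This gave 11 of the 45101 probe sets on the array, 4 of them for Ttr and 1 for each of the other 7 genes (1425952_a_at for Gcg, 1417954_at for Sst, 1420440_at for Ppy, 1424865_at for Pyy, 1451983_at for Irx1, 1426298_at for Irx2 and 1423319_at for Hhex). Among 18194 genes with such an annotation, 16397 passed the filter on dim values, and 7 of the 8 genes were among them. Irx2 was not, having reached the median of its array on 1 array only.

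The study asked what interferon-γ (IFN-γ) does in islets attacked by T cells, and profiled laser-captured islets on 8 arrays, each carrying RNA pooled from 5 mice. All mice were NOD.Scid, a diabetes-prone strain that lacks mature lymphocytes. Diabetogenic mice received CD4+ T cells of the BDC2.5 line, whose transgenic receptor recognises an antigen of beta cells, and were sampled on days 3, 4 and 8 (1 array each). Protected mice were given these cells too, plus an antibody to IFN-γ on day −1 and day 2, and were sampled on days 3, 4, 5 and 8 (1 array each). Untreated mice gave 1 array at day 0. No group received a control antibody, so neutralisation of IFN-γ and the antibody injections themselves cannot be told apart. With 1 pool for each arm and day, no spread between mice could be measured.

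Alpha cells secrete glucagon, which raises blood glucose, and delta cells secrete somatostatin, which restrains the release of both insulin and glucagon. PP cells make pancreatic polypeptide, and peptide YY is made by the same family of islet cells as well as by gut endocrine cells. In autoimmune diabetes the immune attack is directed at beta cells, and the other endocrine cells of the islet are known to outlast them. In tissue of mixed cells, fewer cells of a type and less RNA per cell cannot be told apart.

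The upstream sequences of the 4 peptide hormone genes are shown because the levels of these genes carry most of what follows. They are the 250 bases before the transcription start, from RefSeq on GRCm38.p6, all on the minus strand: chr2:62483654-62483903 for Gcg, chr16:23890845-23891094 for Sst, chr11:102101320-102101569 for Ppy and chr11:102107833-102108082 for the more upstream of the annotated starts of Pyy. Ppy and Pyy are neighbours on chromosome 11, with no other protein-coding gene between them. Capitals mark TATAAA, the TATA box, or TGACGTCA, the cyclic AMP response element, on either strand.
Gcg: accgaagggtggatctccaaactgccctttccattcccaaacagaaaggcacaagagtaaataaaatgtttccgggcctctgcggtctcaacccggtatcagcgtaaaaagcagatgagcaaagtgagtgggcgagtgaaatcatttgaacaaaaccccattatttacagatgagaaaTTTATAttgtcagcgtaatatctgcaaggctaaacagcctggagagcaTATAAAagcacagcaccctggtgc
Sst: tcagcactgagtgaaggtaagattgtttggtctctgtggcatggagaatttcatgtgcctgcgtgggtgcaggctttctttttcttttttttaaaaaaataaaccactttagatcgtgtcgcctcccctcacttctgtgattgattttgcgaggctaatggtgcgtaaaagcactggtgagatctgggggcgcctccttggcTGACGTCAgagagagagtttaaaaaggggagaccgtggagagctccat
Ppy: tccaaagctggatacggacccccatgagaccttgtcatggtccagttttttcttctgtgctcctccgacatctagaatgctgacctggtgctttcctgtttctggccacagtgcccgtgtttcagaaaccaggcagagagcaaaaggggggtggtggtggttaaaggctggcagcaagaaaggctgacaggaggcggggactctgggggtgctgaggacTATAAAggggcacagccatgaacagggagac
Pyy: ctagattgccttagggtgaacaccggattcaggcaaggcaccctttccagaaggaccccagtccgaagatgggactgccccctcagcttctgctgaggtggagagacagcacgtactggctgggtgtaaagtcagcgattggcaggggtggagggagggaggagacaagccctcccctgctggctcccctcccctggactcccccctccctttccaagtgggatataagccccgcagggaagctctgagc
The TATAAA letters began 24 bases before the start of Gcg, with a copy on the other strand at 72, and 31 bases before the start of Ppy. They were found in 12.4% of the 32851 RefSeq windows of that length. The TGACGTCA letters began 48 bases before the start of Sst and were found in 1.55% of windows. The window of Pyy held neither, and TAATTA, a core bound by homeodomain proteins, was in none of the 4 windows and in 4.84% of all. Another motif searched, CANNTG, the E-box, was in 66.2% of all windows and, unmarked here, in those of Gcg (3 matches), Sst (1) and Pyy (1). The matches describe letters only, and in these 4 windows none overlaps another.

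The arrays differed in how much bright signal they carried. The deposited values have a floor, with 1068 to 1492 probe sets of each array at 1 or, once, at 0.91. The share of probe sets reaching 8 times the median of their array was 0.9% on the diabetogenic array of day 4, against 2.06% to 4.75% on the other diabetogenic arrays, 2.29% to 5.35% on protected arrays and 4.75% on the untreated one. The median of 18 spiked hybridisation control probe sets was 1.48 to 2.29 on both arrays of day 3 and the untreated one, and 551 to 1712 on the later arrays. The 3'/5' ratio of Actb, a measure of RNA integrity, was 2.25 to 13.8 on diabetogenic arrays, 5.01 to 24.2 on protected arrays and 1.86 in untreated islets. The brightest 164 genes by mean over the 8 arrays, among them Gcg, Pyy and Ttr, had a median log2 difference between diabetogenic and protected islets of −0.13 on day 3, −2.58 on day 4 and −0.27 on day 8. Over all genes tested the median was −0.02, −0.13 and −0.10.

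Gcg was among the brightest transcripts in captured islets and dimmer on the later arrays of both arms. Its intensity was 2205, 52.8 and 296 in diabetogenic islets on days 3, 4 and 8, 2390, 895, 1279 and 477 in protected islets on days 3, 4, 5 and 8, and 1996 in untreated islets. Both arrays of day 3 were above the untreated one, every later array was below it, and the arms overlapped. The lowest value, on the diabetogenic array of day 4, was 37.8-fold under untreated as a ratio of intensities, yet within that array 99.67% of probe sets were dimmer than Gcg, compared with 99.98% in untreated islets. By rank Gcg therefore stayed near the top of every array, with at least that 99.67% of probe sets below it.

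Sst was bright early and much dimmer on the later arrays of both arms. It stood at 75.2, 2.03 and 7.89 in diabetogenic islets on days 3, 4 and 8, at 108, 10.1, 13.4 and 5.03 in protected islets on days 3, 4, 5 and 8, and at 49.5 in untreated islets. The day 3 arrays of both arms were the highest of all, and the 5 later arrays were all below untreated. Unlike Gcg, it did not keep its rank. On the diabetogenic array of day 4 only 22.03% of probe sets were dimmer than Sst, which put it under the array median, and on the other later arrays 67.2% to 89.34% were. The share had been 98.75% in diabetogenic and 99.24% in protected islets of day 3, and 97.56% in untreated islets.

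Ppy and Pyy behaved unlike each other. The single Ppy probe set was dim on every array, at 5.52, 3.95 and 6.46 in diabetogenic islets of days 3, 4 and 8, at 7.85, 1.54, 5.31 and 6.87 in protected islets of days 3, 4, 5 and 8, and at 5.94 in untreated islets. Each array's median intensity was between 3.14 and 3.96, so the level of the hormone that defines PP cells was close to the bulk of all probe sets. Pyy is not read as a stand-in for PP cells. Over the 8 arrays its Pearson r was 0.823 with Gcg and 0.318 with Ppy.

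Pyy was bright throughout, and its arms did not overlap. Its intensity was 186, 31.3 and 137 in diabetogenic islets on days 3, 4 and 8, 321, 211, 341 and 376 in protected islets on days 3, 4, 5 and 8, and 298 in untreated islets. All 3 diabetogenic arrays lay below the untreated one, and of the 4 protected arrays only that of day 4 did. Of the 7 tested members, Pyy alone had all its diabetogenic arrays below all its protected ones, which was so for 2.34% of all genes tested.

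Ttr, which encodes a carrier of thyroid hormone and retinol-binding protein and is abundant in islet cells, was brightest in untreated islets. Its brightest probe set, 1454608_x_at, stood at 2471, 87.7 and 630 in diabetogenic islets on days 3, 4 and 8, at 1519, 575, 215 and 392 in protected islets on days 3, 4, 5 and 8, and at 3070 in untreated islets. Every injected array was below untreated, and the arms overlapped. The other probe sets ranged from 3.21 to 715 on diabetogenic arrays and from 8.80 to 606 on protected arrays, against 186 to 1361 in untreated islets, and on each of them too all 7 injected arrays were below untreated. The 2 brighter probe sets had their lowest protected value on day 5 and the 2 dimmer ones on day 4. The brighter ones are of the x_at class, whose probes may also match other transcripts.

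**Figure D1:**
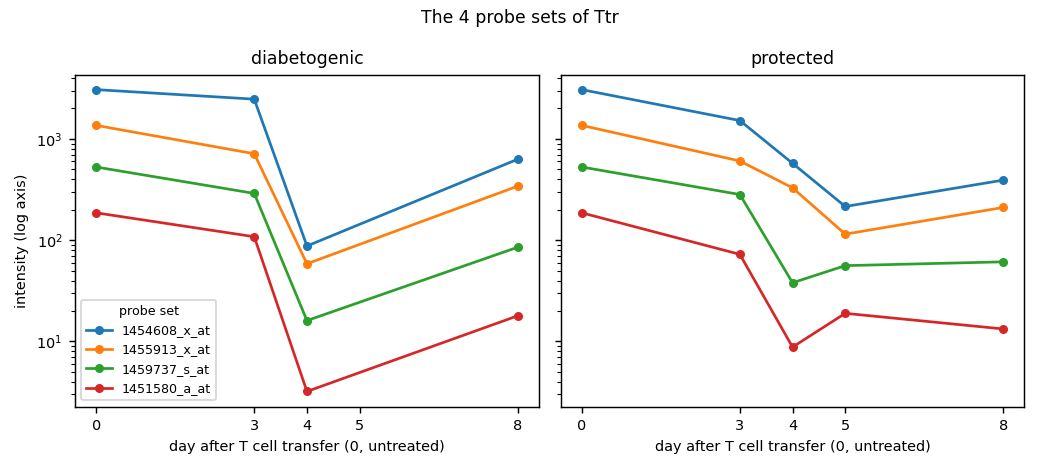
Intensity (log axis) of the 4 probe sets of Ttr by day after T cell transfer, in diabetogenic islets (left) and protected islets (right), with the untreated array at day 0 in both. Every injected array lies below the untreated one on each probe set, and in diabetogenic islets all 4 are lowest on day 4.

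The transcription factor genes were dim. Irx1 stood at 6.52, 2.08 and 1.55 in diabetogenic islets on days 3, 4 and 8, at 5.83, 2.03, 4.23 and 1.87 in protected islets on days 3, 4, 5 and 8, and at 8.72 in untreated islets, so that all 7 injected arrays were below untreated and 4 were under the array median. Hhex, which delta cells need to keep their identity, stood at 11.8, 3.92 and 17.9 in diabetogenic islets on days 3, 4 and 8, at 11.4, 8.90, 5.56 and 10.8 in protected islets on days 3, 4, 5 and 8, and at 11.9 in untreated islets. It was above the array median everywhere, and its highest value was that of the diabetogenic array of day 8. Irx2 stood at 2.43, 1.34 and 15.8 in diabetogenic islets on days 3, 4 and 8, at 1.23, 1, 1 and 1.25 in protected islets on days 3, 4, 5 and 8, and at 1.96 in untreated islets. The diabetogenic array of day 8 alone carried it above its array's median, and no second probe set is there to set beside it.

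**Figure D2:**
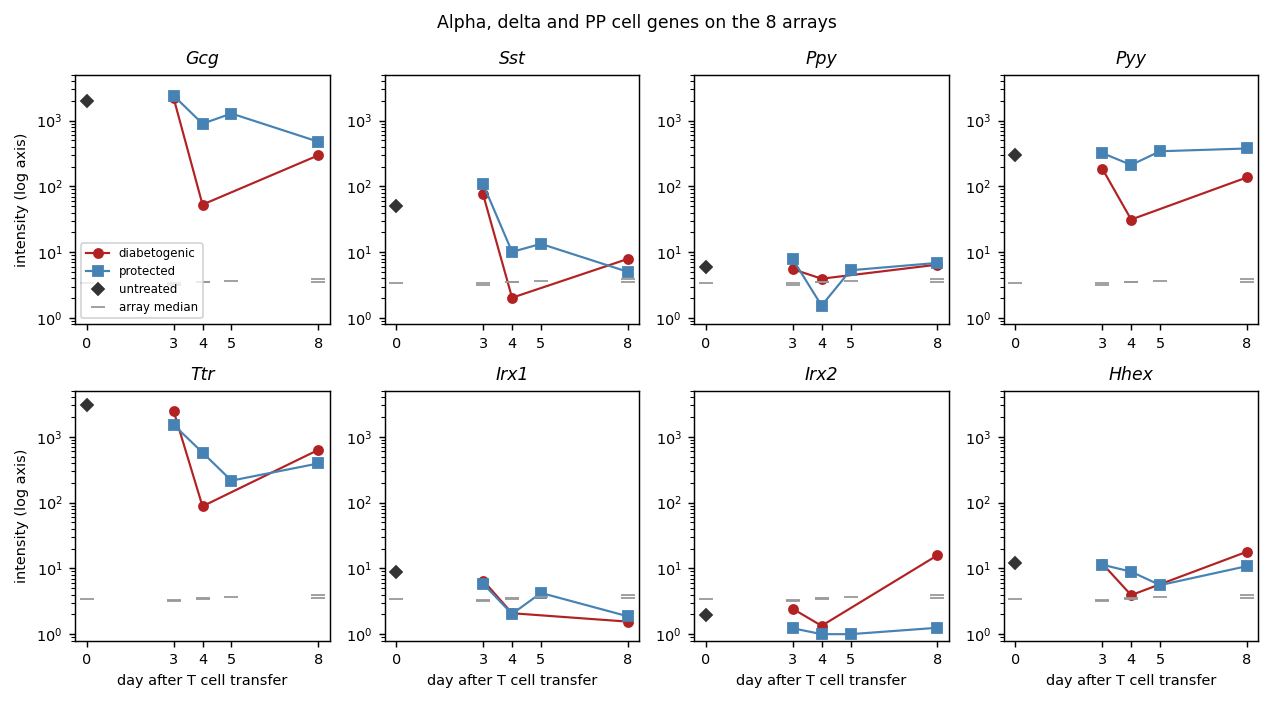
Intensity (log axis) of the 8 genes by day after T cell transfer, with diabetogenic arrays as red circles, protected arrays as blue squares, the untreated array as a black diamond and each array's median over all probe sets as a grey dash. Ttr is drawn from its brightest probe set. Gcg, Sst, Pyy, Ttr and Hhex have their lowest value on the diabetogenic array of day 4.

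The first comparison asked whether these genes differed between the arms when IFN-γ was neutralised, over the 3 days both arms share. None of the 7 tested members passed, where 18 of 16397 genes did (0.11%; limma with day as a block, Benjamini-Hochberg adjusted p under 0.05). None of the 7 had an unadjusted p under 0.05 either, which 1471 genes had. The members' median log2 difference was −0.43, with 5 of 7 negative, and the median over all genes was −0.07. Gcg and Pyy were lower in diabetogenic islets on all 3 days, as were 20.1% of genes.

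By size, with folds on the log2(intensity + 2.155) scale that the fits use, Pyy was 3.10-fold lower in diabetogenic islets (log2 difference −1.63 ± 0.92 (SE), 95% interval −3.50 to 0.23, adjusted p = 0.608 by limma). Gcg was 3.05-fold lower (−1.61 ± 1.64, interval −4.96 to 1.74, adjusted p = 0.790), but −0.40 without the day 4 pair and −0.66 with quantile normalization. Sst differed by −0.52 ± 0.44 (adjusted p = 0.731; −0.012 without the day 4 pair) and Ttr by −0.43 ± 1.68 (adjusted p = 0.964). The remaining 3 were close to 0, with Ppy at 0.09 ± 0.35, Hhex at −0.06 ± 0.39 and Irx1 at 0.01 ± 0.32. Their intervals were −0.62 to 0.81, −0.86 to 0.73 and −0.65 to 0.66. The fit has 2 residual degrees of freedom for a gene and weighs its spread with that of genes of like brightness.

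Day by day, with 1 array an arm and no test, the differences of Gcg, Sst, Pyy and Ttr were largest on day 4. So were those of Hhex (−0.86) and, in the other direction, of Ppy (0.72), while those of Irx1 were near 0 on each day. On day 3 none of the 7 members was lower in diabetogenic islets by at least 2-fold (0.506% of genes were) and none higher (1.34%). On day 4, 4 of 7 were lower (14.1% of genes) and none higher (5.78%), and on day 8 Pyy alone was lower (13.9%) and none higher (9.0%). The day 4 differences were −4.03 for Gcg, −2.68 for Ttr, −2.67 for Pyy and −1.55 for Sst on the log2 scale. Pyy and the brightest probe set of Ttr lay between the quartiles of the brightest 164 genes on that day (−3.03 to −2.03), and Gcg lay below them. The other Ttr probe sets were at −2.45, −1.14 and −1.03.

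On days 3 and 8 the pattern was another one. Pyy was at −0.78 and −1.45, below the quartiles of the bright genes on both days (−0.36 to 0.13 and −0.57 to 0.04). The brightest probe set of Ttr was at 0.70 and 0.68, above those quartiles on both days. The other Ttr probe sets were at 0.24, 0.04 and 0.56 on day 3, with the 0.04 inside the quartiles. On day 8 they were at 0.69, 0.46 and 0.38. Gcg was at −0.12 and −0.69, and Sst at −0.51 and 0.48. Irx2, untested, stood at 15.8 in diabetogenic and 1.25 in protected islets on day 8, the protected value being close to the floor, so no fold is given. Without the day 4 pair, Pyy passed at −1.11 (adjusted p = 0.0300 by limma). Ttr, fitted on its brightest probe set only, passed at 0.69 (adjusted p = 0.0158 by limma), with the opposite sign to that over 3 days. That fit keeps 2 days, and 32 genes passed in it.

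**Figure D3:**
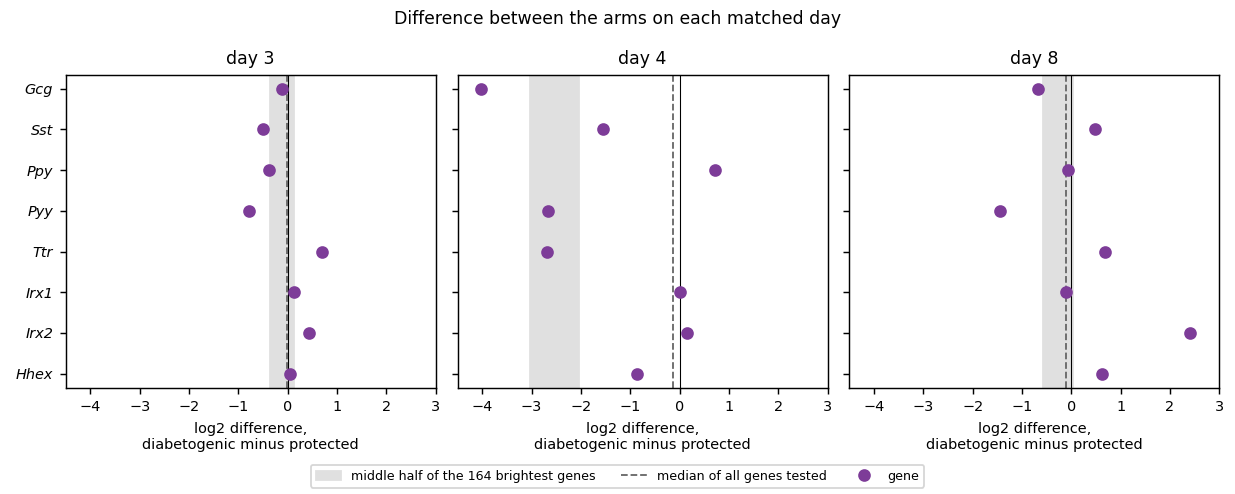
Log2 difference in intensity, diabetogenic minus protected, of each of the 8 genes on days 3, 4 and 8, 1 array an arm. The grey band spans the quartiles of the 164 brightest genes and the dashed line is the median of all genes tested. The band lies between −3.03 and −2.03 on day 4, and Pyy lies left of zero on all 3 days. Ttr is drawn from its brightest probe set.

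Markers of other cells differed between arrays, and their sums did not keep 1 order of the arms over the days. Without centring, none of those listed here passed between the arms (smallest adjusted p by limma 0.256 for acinar, 0.505 for macrophage and 0.342 for T cell genes). All 17 tested acinar genes were nevertheless lower in diabetogenic islets, with a median log2 difference of −1.94 against −0.07 over all genes. With each array centred on the beta cell median, as described below, 3 of the 17 passed, all lower (smallest adjusted p = 0.00739 by limma). Of all genes, 1.34% passed there. Of 20 acinar cell genes, 17 were tested, and their summed intensity was 356 to 2527 on diabetogenic arrays (356 on day 4 and 395 on day 8), 1365 to 7299 on protected arrays (7299 on day 4 and 2217 on day 8) and 3458 in untreated islets. Of 14 macrophage symbols, 13 were tested, with sums of 243 to 2819 on diabetogenic arrays, 384 to 2243 on protected arrays and 90.5 in untreated islets. Of 11 T cell symbols, 8 were tested, with sums of 38.4 to 67.7, 39.4 to 93.6 and 24.1 in the same order of groups. With a floor of 1 in the values, absence of a marker cannot be read from them. The part of these cells, and of the share of bright probe sets, in the differences of Pyy, Gcg and Sst was not tested.

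The comparisons with untreated islets asked what the T cell transfer changed in either arm. They share the single untreated array, and that array was on the other side of the split in spiked controls from every array of day 4 and later. In diabetogenic islets none of the 7 members passed, and none of 16397 genes did (0%; 450 had an unadjusted p under 0.05, no member among them). In protected islets none of the 7 passed and none of all genes (0%; 371 with an unadjusted p under 0.05, no member among them). Adjusted p by limma was 0.894 to 0.979 for the members in diabetogenic islets and 1 in protected islets.

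All 7 members were on average below untreated in diabetogenic islets, with a median log2 difference of −1.65 against −0.10 over all genes. In protected islets 6 of 7 were, with a median of −0.90 against −0.04. The differences in diabetogenic and protected islets were −2.60 ± 1.53 and −0.90 ± 1.48 for Gcg, −2.56 ± 1.51 and −2.55 ± 1.46 for Ttr, and −1.80 ± 1.49 and −1.39 ± 1.44 for Sst. They were −1.65 ± 1.28 and 0.04 ± 1.24 for Pyy and −1.08 ± 0.59 and −1.01 ± 0.57 for Irx1. Hhex and Ppy were within 0.35 of untreated in both arms. Leaving out 1 diabetogenic array at a time moved the diabetogenic differences to between −3.97 (without day 3) and −1.30 (without day 4) for Gcg, −3.69 and −1.30 for Ttr, −2.99 and −0.89 for Sst, and −2.14 and −0.89 for Pyy, with the same arrays left out. In protected islets those of Gcg ran from −1.29 (without day 3) to −0.51 (without day 8) and those of Sst from −2.22 to −0.91.

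Array by array, the count of members at least 2-fold below untreated rose and fell with the share of all genes in each arm. It was 0, 6 and 5 of 7 in diabetogenic islets on days 3, 4 and 8, where 1.23%, 26.0% and 22.6% of all genes were. On the protected arrays of days 3, 4, 5 and 8 it was 1, 5, 2 and 4 of 7, where 1.08%, 20.4%, 10.0% and 14.8% of genes were. Ttr was the member on the protected array of day 3. Sst and Ttr were the members on the protected array of day 5.

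Beta cell genes were set beside these genes, since beta cells are the cells the transferred T cells attack. The median level of the 12 tested beta cell genes stood at a log2 difference from untreated of −0.70, −4.34 and −4.23 in diabetogenic islets on days 3, 4 and 8, and of −0.56, −3.39, −2.84 and −3.35 in protected islets on days 3, 4, 5 and 8. Hhex, Ppy, Pyy, Irx1 and Sst were above these values on all 7 injected arrays, by as little as 0.03 for Pyy on the diabetogenic array of day 3. The floor fixed part of this. An intensity of 1 is 1.66 on the log2 scale, and untreated Ppy, Irx1 and Hhex stood at 3.02, 3.44 and 3.81. From there they could not fall as far as the beta cell median on any array after day 3. Nor could Sst, at 5.69 untreated, on the diabetogenic arrays of days 4 and 8. Their place above it on those arrays carries no information. The median of the 12 genes' own differences from untreated was −0.68, −3.71 and −4.04 on diabetogenic arrays, and −0.25, −2.68, −2.27 and −2.62 on protected arrays. Against these, Irx1 was below on the protected array of day 3 (−0.45), and Sst (−2.85) and Ttr (−2.96) on that of day 8. On the diabetogenic array of day 4, Gcg (−5.18) and Ttr (−5.10) were by either measure further below untreated than the beta cell genes. However, 7 of the 12 beta cell genes were under the array median there. The floor thus limited how far these could fall too, and no conclusion is drawn from the order on that array. Ttr was also further below than the beta cell genes, by either measure, on the protected arrays of days 3 and 5.

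The arms were then compared with each array centred on the beta cell median, which tests the arms and not the distance from untreated. None of the 7 members passed (220 genes did, 1.34%), where the median over all genes was 0.58. Gcg was at −0.95 ± 1.73 and Pyy at −0.98 ± 0.73, and the others ran from 0.13 for Sst to 0.75 for Ppy (adjusted p by limma 0.286 to 0.935 for all 7). Against untreated, with the same centring chosen after the data were seen, the members were at 0.49 (Gcg) to 2.96 (Ppy) in diabetogenic islets and at −0.02 (Ttr) to 2.57 (Pyy) in protected islets. None passed (adjusted p by limma 0.297 to 0.996), with SEs of 1.55 to 3.62 that rest on 1 untreated array and do not show likeness to beta cell genes, and the medians over all genes were 2.99 and 2.49.

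The beta cell hormone genes are given by array. The Ins2 probe set was at 4471, 3700 and 3409 in diabetogenic islets on days 3, 4 and 8, at 4887, 5532, 6359 and 3779 in protected islets on days 3, 4, 5 and 8, and at 4277 in untreated islets. It was the brightest probe set of the whole array on both arrays of day 3 and the untreated one, and the deposited values carry no saturation flag. Iapp, the amylin gene, depended on the probe set: the one used was at 769, 99.7 and 725 on diabetogenic arrays against 505 untreated, and another at 1669, 6.51 and 108 against 792 untreated. No Ins1 probe set was analysed here.

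**Figure D4:**
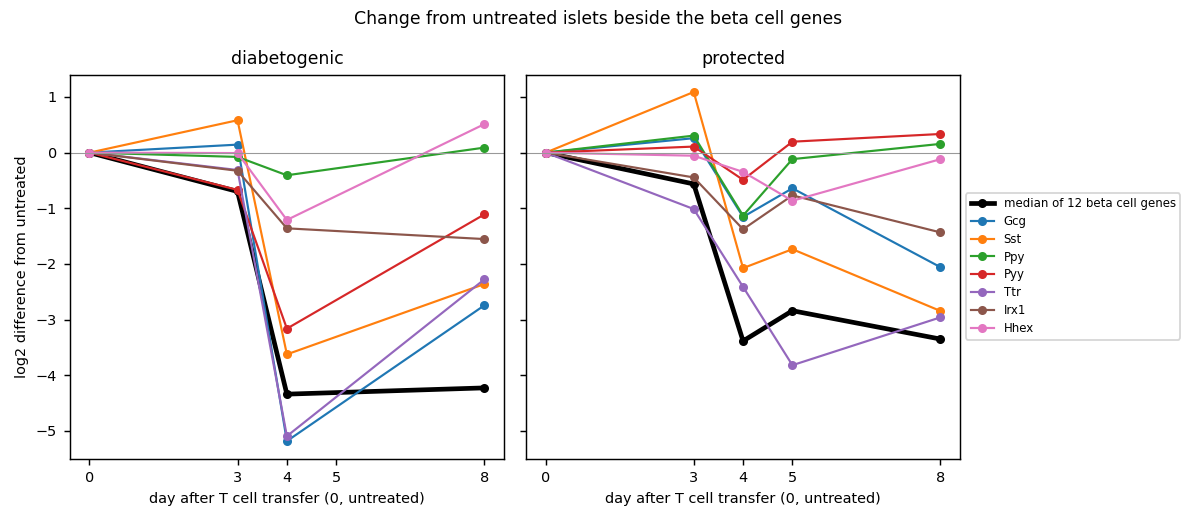
Log2 difference from the untreated array by day after T cell transfer, in diabetogenic islets (left) and protected islets (right), for the 7 tested genes and, in black, the median of 12 beta cell genes. The black line is the difference of the list's median level, at −4.23 and −3.35 on day 8. All 7 lines lie above it there, but the floor kept Ppy, Irx1 and Hhex, and in diabetogenic islets Sst, from reaching it. Sst and Ttr lie below the list's median difference of −2.62 on the protected array of day 8.

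Change over time was tested as 1 slope for both arms over the 7 injected arrays. No member passed and no gene did (0%; 1474 genes had an unadjusted p under 0.05, Sst the only member among them). The slope of Sst was −0.47 ± 0.21 on the log2 scale per day (adjusted p = 0.554 by limma), that of Gcg −0.32 ± 0.25, that of Ttr −0.20 ± 0.25 and that of Irx1 −0.17 ± 0.08. Pyy, Hhex and Ppy were at 0.09, 0.10 and 0.07 per day. Without both arrays of day 4, Sst (−0.67, adjusted p = 4.65e-05), Gcg (−0.52, adjusted p = 0.000118) and Ttr (−0.36, adjusted p = 0.0170) passed, along with 15.7% of all genes. Without day 3 the slopes were 0.03, 0.15 and 0.32 for Sst, Gcg and Ttr. The negative slopes thus depend on including the arrays of day 3, which also stand apart in the spiked controls. Without day 3, the fit starts from day 4, with its low diabetogenic array. In protected islets Gcg (895 and 477), Sst (10.1 and 5.03) and Ttr (575 and 392) were still lower on day 8 than on day 4. The part of the split in spiked controls, and of that diabetogenic array, was not tested.

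Other genes of the same cells gave a mixed picture, with none passing in any of the 4 comparisons above that used no centring. Of 8 other alpha cell symbols, 4 were tested. The amino acid transporter genes Slc7a2 and Slc38a5 stood below untreated in both arms (−2.97 ± 1.32 and −1.54 ± 0.70 in diabetogenic islets, −1.13 ± 1.28 and −1.34 ± 0.68 in protected ones), and the POU factor gene Pou3f4 stood above it (1.44 ± 0.64 and 0.72 ± 0.62). Slc7a2 stood at 51.0, 3.18 and 1.71 on the diabetogenic arrays, at 70.0, 16.7, 52.0 and 22.7 on the protected arrays and at 78.4 untreated, with 3 other probe sets that stayed between 2.17 and 15.2 on all arrays.

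All 5 other delta cell genes were tested. Rbp4, the retinol-binding protein that transthyretin carries in blood, stood at 106, 3.50 and 1.90 in diabetogenic islets on days 3, 4 and 8, at 112, 9.00, 34.5 and 10.9 in protected islets on days 3, 4, 5 and 8, and at 116 in untreated islets. Both day 3 arrays were near untreated and the 5 later arrays well below. Its difference from untreated was −3.12 ± 1.60 in diabetogenic and −2.08 ± 1.55 in protected islets. Frzb, a secreted Wnt antagonist, was at −1.21 ± 0.84 and −1.88 ± 0.81, and Casr, the calcium-sensing receptor gene, stood above untreated at 0.74 ± 0.79 and 0.999 ± 0.76. Over all 5 the medians were −0.52 and −0.15. The ghrelin gene Ghrl of epsilon cells was at 1, 8.03 and 14.5 on diabetogenic arrays, at 2.51, 8.82, 5.19 and 4.60 on protected arrays and at 1 untreated.

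Of 15 symbols for receptors of islet hormones, 11 were tested, with a median difference near 0 in each comparison (0.02 between the arms, and 0.06 and −0.21 for diabetogenic and protected against untreated islets). The glucagon receptor gene Gcgr had the largest difference between the arms (−0.82 ± 0.38, adjusted p = 0.539 by limma). It stood at 13.3, 2.49 and 3.40 in diabetogenic islets on days 3, 4 and 8, at 13.2, 13.9, 5.75 and 6.69 in protected islets on days 3, 4, 5 and 8, and at 17.5 in untreated islets. Of a list of 18 genes taken as shared by islet endocrine cells, beta cells among them, 16 were tested. Of these, 15 were below untreated in diabetogenic and 16 in protected islets, with median differences of −2.40 and −1.89.

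The genes most like a member in their values over the 8 arrays were sought among 9040 genes outside the 8 with an SD of at least 0.5. For Gcg they were Dad1 (Pearson r = 0.996), Qars (0.987), Tmem179b (0.985), Gars (0.983) and Pebp1 (0.982). For Sst they were Gnas and Rpl4 (both 0.982), Polr2b (0.981), Tmem94 (0.979) and B830017H08Rik (0.978), for Ttr Cxxc5 (0.978), Zcchc3 (0.974), Omd (0.972), Atg12 (0.969) and Taf7l (0.960), and for Ppy Immt (0.949), Golga7b (0.937), Ldah (0.922), Rprd1b (0.918) and Txndc12 (0.916). Among the members, Gcg and Sst had r = 0.867, Sst and Irx1 0.866, Sst and Ttr 0.860 and Gcg and Pyy 0.823, while Gcg and Ppy had 0.224. These values describe 8 arrays that share the differences in bright signal and in spiked controls given above.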

How the data were processed

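Islet RNA pooled from 5 mice an array was amplified and hybridised, per the labels' protocols. The deposited values are intensities on a linear scale, 1 per probe set and array. Which software the authors used to summarise and scale them was not given in the labels. Genes were named from the platform annotation, under which 34958 probe sets carry 1 symbol.

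Values were analysed as log2(intensity + 2.155), where 2.155 is the median over arrays of the 25th percentile, so differences of dim genes are understated. The deposited scale was kept. Probe sets at or above the array median on at least 2 arrays were tested, the brightest per gene, with limma 3.58.1 in R 4.3.3 (variance trend, Benjamini-Hochberg over 16397 genes, threshold 0.05). Fits were tested on simulated data with independent noise and no difference shared by an array, which does not show how they perform on these arrays. No p-value measures the spread between mice. Between the arms, with day as a block, p-values rest on how differences varied over the shared days. Most of that weight comes from genes of like brightness, with 30.36 prior against 2 residual degrees of freedom. In the fit between the arms centred on beta cell genes the prior was infinite, so a gene's own spread had no weight. In the other fits p-values rest on the spread between arrays of different days. The untreated group's lone array is assumed to vary like the others.

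The genes, lists, tests and alternatives were chosen with earlier results of these data known. All 8 genes are named, and of each other list (besides Ins2 and Iapp) at most the 3 largest differences in a comparison. Number of arrays limits precision.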

Additional observations from a re-analysis of the deposited data

How the results depend on the processing

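Directions and calls were recomputed under 385 alternatives to the members' results, of which 339 kept the direction and the side of the threshold, 41 turned the sign, and 6 passed where the reported fit did not, 1 of them with the sign turned. Among all genes, the 18 calls between the arms became 1 with quantile normalization or with the mean of a gene's probe sets, 8 with 4 times the pseudocount, 10 without the filter, 11 without the variance trend, 0 without the day block, and 32 to 69 without 1 of the day pairs. The 220 calls relative to beta cell genes became 145 with 0.25 times the pseudocount, 1176 with 4 times, 485 without the variance trend, 1 with the mean of probe sets and 32 to 3373 without 1 of the day pairs. No call per day became 2 without the variance trend, 14 without day 3 and 2575 without day 4, and no call in protected against untreated islets became 1 with quantile normalization or without the protected array of day 3. The day block is the only pairing in the design, and the labels give no replicate numbers. Between the arms, Irx1 was at −0.0098 with 0.25 times the pseudocount, −0.0019 with quantile normalization and −0.040 with median centring, and Ttr at 0.61 with quantile normalization. Pyy was at −0.24 in protected against untreated islets and −0.0082 per day with quantile normalization. Relative to beta cell genes, Ttr was at −0.043 with 4 times the pseudocount and Gcg at 0.067 with quantile normalization. Sst was at −0.077 with the mean of probe sets. Without the filter 1 member, Irx2, passed there (1.65 ± 0.46, adjusted p = 0.0406 by limma), where 199 of 18194 genes did (1.09%). The median over all genes was 0.61 in that fit, and Irx2 was above its array's median on the diabetogenic array of day 8 only. Another alternative, added after seeing the data, centred each array on the beta cell genes. Differences from untreated then turned positive in diabetogenic islets for Gcg (0.49), Sst (1.29), Ppy (2.96), Pyy (1.44), Ttr (0.53), Irx1 (2.01) and Hhex (2.85). In protected islets they did so for Gcg (1.64), Sst (1.14), Ppy (2.34), Irx1 (1.53) and Hhex (2.19). That centring shifts all genes of an array alike, and the medians over all genes were 2.99 in diabetogenic and 2.49 in protected islets. These turned signs thus reflect a change of reference. Also added after seeing the data, leaving out the diabetogenic array of day 4 let 1 member, Gcg, pass per day (−0.48, adjusted p = 0.0250 by limma). Of all genes, 8 passed there (0.0488%).

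Leaving out 1 day or array at a time gave 0 to 2 members called between the arms and 0 to 3 per day. The differences between the arms ran from −1.00 to 0.69 for Ttr, −0.22 to 0.33 for Ppy, −0.41 to 0.34 for Hhex, −0.051 to 0.068 for Irx1, −2.06 to −1.11 for Pyy, −2.36 to −0.40 for Gcg and −1.03 to −0.012 for Sst. Against untreated they ran from −0.24 to 0.0065 for Ppy and −0.61 to 0.25 for Hhex in diabetogenic islets, and from −0.36 to 0.12 for Ppy and −0.061 to 0.21 for Pyy in protected islets. Slopes per day ran from −1.43 to 0.15 for Gcg, −1.97 to 0.030 for Sst, −2.08 to 0.32 for Ttr, −0.46 to 0.33 for Pyy, −0.24 to 0.20 for Ppy and −0.56 to 0.26 for Hhex. Relative to beta cell genes, the differences between the arms ran from −1.53 to 0.10 for Gcg, −0.48 to 0.49 for Sst and −0.45 to 1.197 for Ttr. The cause was not tested. Dim probe sets such as those of Ppy, Irx1 and Irx2 give differences that the pseudocount compresses.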
